A study of Mus musculus with 4 samples.

Results

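The 28 cholesterol and fatty acid synthesis genes form a set of genes listed by name from the enzymes, regulators and transport proteins of the pathway. Each gene was represented by the RPKM of its transcript with the longest gene body, after transcripts were assigned to symbols by mm10 position on the same strand. RPKM divides the reads of a transcript by its length and by the depth of the library. All 28 were found among the 20805 protein-coding genes to which a transcript was assigned, and all 28 were among the 10737 genes that reached 1 RPKM in at least 1 library. Those 10737 genes are called the genes tested below, and they are the background of each count. The list holds 7 genes of the mevalonate and isoprenoid steps, 10 of the squalene and sterol steps, 6 of fatty acid synthesis, 3 regulators and 2 genes of sterol transport and efflux.

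Total RNA of mouse embryonic fibroblasts (MEF), which are grown from embryos, was sequenced by strand, with 1 library for each of 4 conditions. *Hmga2*+/+ (wild type) and *Hmga2*-/- MEF came from C57BL/6 embryos of embryonic day 15.5, from the body left after head, limbs, tail and inner organs were taken out, and were immortalized with SV40. *Hmga2* encodes a DNA-binding chromatin protein, and its loss was compared without and with TGFB1, a cytokine that drives fibroblasts toward a contractile and matrix-producing state. All cells were starved overnight in 1% FCS (fetal calf serum). They were then treated for 24 h with human recombinant TGFB1 at 10 ng/ml or served as control (Ctrl). The sources used here name no independent lines within a genotype, so differences between lines and differences between genotypes cannot be told apart.

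Cells make cholesterol from acetyl-CoA through mevalonate, isoprenoid diphosphates, squalene and a series of sterols, and they build fatty acids from the same acetyl-CoA. Most genes of both routes are driven by the SREBP transcription factors, which stay bound in the endoplasmic reticulum with SCAP and INSIG proteins while sterols are plentiful and move to the nucleus when sterols run low. LXR nuclear receptors are activated by oxysterols and raise genes of cholesterol export such as *Abca1*. Fibroblasts use the pathway chiefly for membranes, whereas hepatocytes and adipocytes use it for lipoproteins and storage.

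The libraries held between 56140000 and 57300000 mapped reads, derived from the steps in the low RPKM values. At these depths 3 reads on a transcript of 1000 bases correspond to between 0.0524 and 0.0534 RPKM. *Hmga2* had 14.8 RPKM in the *Hmga2*+/+ Ctrl library, 40.7 RPKM in the *Hmga2*+/+ TGFB1 library and 0 RPKM in both *Hmga2*-/- libraries. The TGFB1 targets *Ccn2* (also named *Ctgf*), *Smad7* and *Acta2* were each higher in the TGFB1 library of both genotypes, with *Acta2* at 15.9 RPKM in Ctrl and 58.3 RPKM with TGFB1 in *Hmga2*+/+ cells, and at 48.2 and 165.3 RPKM in *Hmga2*-/- cells. All 10 fibroblast markers reached 1 RPKM in at least 1 library, *Lum* only in *Hmga2*+/+ Ctrl (1.08 RPKM). Their sum was between 2340 and 2929 RPKM per library. All 5 hepatocyte markers were at 0 in the 4 libraries. Of 8 adipocyte markers, *Adipoq*, *Plin1*, *Cidec*, *Lep* and *Cfd* were at 0 throughout, and the sum of the list was 2.49, 1.19, 3.07 and 1.15 RPKM in *Hmga2*+/+ Ctrl, *Hmga2*+/+ TGFB1, *Hmga2*-/- Ctrl and *Hmga2*-/- TGFB1. In that order *Fabp4* had 1.967, 1.101, 1.922 and 0.914 RPKM, and *Pparg* had 0.489, 0.091, 1.146 and 0.233 RPKM. *Retn* had at most 0.031 RPKM. Endothelial markers summed to 3.89, 4.86, 7.12 and 8.14 RPKM in the same order, but the genes of the list differed. *Kdr* had 1.113, 4.46, 1.455 and 7.393 RPKM, and *Tek* had 2.75, 0.33, 5.651 and 0.686 RPKM. *Pecam1* and *Cdh5* had at most 0.048 RPKM. Epithelial, blood and skeletal muscle markers summed to at most 1.66 RPKM. Neural markers, nearly all of it *Map2*, summed to 18.2, 8.89, 22.7 and 9.27 RPKM. The part of these cells or genes in the ratios below was not tested.

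Most of the set was expressed well above the detection floor. In the *Hmga2*+/+ Ctrl library the levels ran from 215.8 RPKM for *Scd2*, a stearoyl-CoA desaturase that makes monounsaturated fatty acids, to 1.51 RPKM for the cholesterol exporter *Abca1*. *Msmo1*, the methylsterol monooxygenase, came next to the top with 198.5 RPKM, followed by *Scd1* with 117.4 RPKM, the HMG-CoA synthase *Hmgcs1* with 97.0 RPKM, the farnesyl diphosphate synthase *Fdps* with 91.7 RPKM and the lanosterol demethylase *Cyp51* with 91.2 RPKM. At the low end, *Acaca* (acetyl-CoA carboxylase) had 9.16 RPKM and *Hsd17b7* (the sterol ketoreductase) 9.60 RPKM. *Abca1* had between 432 and 1332 reads per library, and *Scd2* between 46940 and 72635.

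The pool of RNA for the set was smallest in the *Hmga2*-/- Ctrl library. Summed over the 28 genes it was 1355 RPKM in *Hmga2*+/+ Ctrl, 1475 RPKM in *Hmga2*+/+ TGFB1, 1005 RPKM in *Hmga2*-/- Ctrl and 1274 RPKM in *Hmga2*-/- TGFB1. The squalene and sterol genes moved this sum most, with 512.2, 673.7, 381.1 and 593.8 RPKM in the same order. The fatty acid genes summed to 456.5, 437.2, 329.5 and 372.5 RPKM, and the mevalonate genes to 265.8, 245.1, 199.6 and 202.2 RPKM. Such sums are weighted toward the most abundant genes. Most of the rise of the sterol sum with TGFB1 in *Hmga2*+/+ MEF came from *Msmo1* (198.5 to 290.9 RPKM) and *Cyp51* (91.2 to 150.7 RPKM). By gene, 17 of the 28 were lower and 11 higher with TGFB1 in these cells. Taken gene by gene, the *Hmga2*-/- Ctrl library held the lowest of the 4 values for 18 genes and the *Hmga2*-/- TGFB1 library for 8. The same counts over all genes tested were not made, so these counts only describe the set. The exceptions were *Ebp*, lowest in *Hmga2*+/+ Ctrl, and *Abca1*, lowest in *Hmga2*+/+ TGFB1. In bulk RNA, less RNA per cell and fewer cells that express a gene cannot be told apart.

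**Figure D1:**
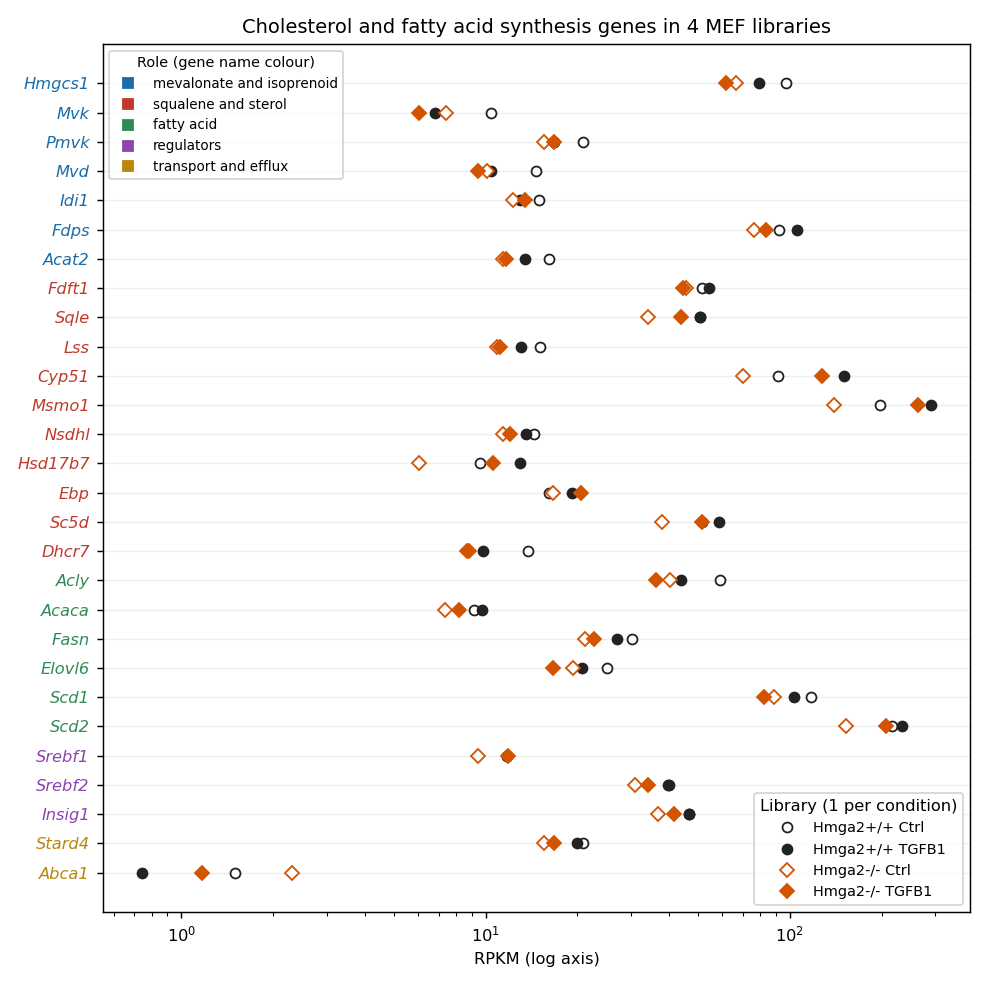
Level of each of the 28 genes in the 4 libraries. Each point is the RPKM (log axis) of 1 library, circles for *Hmga2*+/+ and diamonds for *Hmga2*-/- MEF, open for Ctrl and filled for TGFB1, and the colour of a gene's name gives its role. The open diamond is the leftmost point for 18 genes, a count that was not made over all genes tested. For *Cyp51*, *Msmo1*, *Hsd17b7* and *Ebp* both filled points lie to the right of both open ones, as for 37.0% of the genes tested.

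Promoters of the set were read from RefSeq for the mouse assembly GRCm38.p6, which matched 22 of the 28 genes and 8504 of the 10737 genes tested. In the 250 bases before the start, 4 motifs were searched on both strands, and matches of different motifs may overlap. CCAAT, the box bound by NF-Y, was present in 15 of 22 promoters (68.2%), against 37.3% of all promoters, and 9 of the 22 had at least 2 copies, against 14.3%. GGGCGG, the Sp1 box, was present in 18 of 22, against 63.3% of all. TCACNCCAC, the sterol regulatory element, was found in *Hmgcs1* alone, against 0.905% of all promoters, and the E-box CACGTG in *Hsd17b7*, *Sc5d*, *Insig1* and *Abca1*, against 8.90%. A match is a match of letters, and genes were not grouped by it.

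The promoters of *Hmgcs1* and of the 3 sterol genes with the largest TGFB1 ratios are shown with that of *Abca1*, the gene with the opposite pattern. Each is the strand of the gene, 5′ to 3′, ending at the base before the transcript start, with capitals for CCAAT boxes (read as ATTGG where the box is on the other strand) and for the sterol element of *Hmgcs1*. They lie at chr13:119690101-119690350 (plus strand), chr5:4104698-4104947 (minus), chr8:64733579-64733828 (minus), chr1:169969206-169969455 (minus) and chr4:53159896-53160145 (minus) in the order printed.
Hmgcs1: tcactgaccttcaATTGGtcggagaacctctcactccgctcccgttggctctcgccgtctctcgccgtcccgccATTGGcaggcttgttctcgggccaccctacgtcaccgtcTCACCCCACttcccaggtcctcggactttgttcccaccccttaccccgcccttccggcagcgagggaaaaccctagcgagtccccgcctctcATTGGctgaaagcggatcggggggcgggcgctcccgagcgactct
Cyp51: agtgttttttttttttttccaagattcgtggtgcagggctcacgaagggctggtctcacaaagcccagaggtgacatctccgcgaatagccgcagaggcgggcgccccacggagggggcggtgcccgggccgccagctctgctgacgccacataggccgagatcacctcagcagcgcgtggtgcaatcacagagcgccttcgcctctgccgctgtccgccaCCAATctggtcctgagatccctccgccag
Msmo1: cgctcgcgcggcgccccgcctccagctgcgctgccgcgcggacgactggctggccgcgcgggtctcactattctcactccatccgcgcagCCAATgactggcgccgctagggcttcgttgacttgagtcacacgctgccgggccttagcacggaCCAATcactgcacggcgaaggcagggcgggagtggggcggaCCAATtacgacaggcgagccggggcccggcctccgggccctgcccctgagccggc
Hsd17b7: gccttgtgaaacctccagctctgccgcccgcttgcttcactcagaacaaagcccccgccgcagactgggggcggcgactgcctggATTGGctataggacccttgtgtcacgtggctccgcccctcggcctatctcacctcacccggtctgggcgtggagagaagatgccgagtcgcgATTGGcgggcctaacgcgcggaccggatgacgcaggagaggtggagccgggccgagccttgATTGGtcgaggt
Abca1: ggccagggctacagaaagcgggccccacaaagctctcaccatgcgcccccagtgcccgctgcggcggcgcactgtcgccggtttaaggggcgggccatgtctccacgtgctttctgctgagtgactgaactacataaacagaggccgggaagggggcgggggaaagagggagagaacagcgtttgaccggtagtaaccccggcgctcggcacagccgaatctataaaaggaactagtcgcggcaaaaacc
*Hmgcs1* had 3 CCAAT boxes and the sterol element between the second and the third of them. *Msmo1* and *Hsd17b7* had 3 boxes each, *Cyp51* had 1, close to the start, and *Abca1* had none and so is printed without capitals. The printed promoters are a selection. Among the others, *Mvk*, which like *Abca1* was lower with TGFB1, had 5 boxes. *Dhcr7*, *Acat2*, *Srebf1*, *Acaca*, *Acly* and *Elovl6* had none, like *Abca1*. A relation between boxes and ratios was not tested.

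Without TGFB1, nearly the whole set was lower in *Hmga2*-/- than in *Hmga2*+/+ MEF, each gene by a modest amount. Of the 28 genes, 26 were lower, where 53.5% of the genes tested were lower. The median log2 ratio of the set was -0.43, and that of all genes tested was -0.02. At least 1.25-fold lower, a limit chosen after the values were seen, were 21 of 28 genes, against 7.02% of the genes tested. Among genes with at least 5 RPKM in a library, which leaves out *Abca1*, they were 21 of 27, against 3.77%. Past 1.5-fold only *Hsd17b7* and *Dhcr7* were lower, 2 of 28 against a background of 1.64%, and only *Abca1* was higher, against 2.37%. No condition has a replicate, so these ratios carry no test. The intervals given with them are exact 95% intervals for counting error in the ratio of 2 libraries, which leave out differences between cultures.

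*Dhcr7*, the reductase of the last step of cholesterol synthesis (chr7:143823167-143848410), had 13.8 RPKM in *Hmga2*+/+ Ctrl, 9.80 RPKM in *Hmga2*+/+ TGFB1, 8.79 RPKM in *Hmga2*-/- Ctrl and 8.68 RPKM in *Hmga2*-/- TGFB1. The *Hmga2*+/+ Ctrl library thus stood alone above the other 3. The log2 ratio between genotypes was -0.65 in Ctrl (interval -0.75 to -0.55). *Hsd17b7* (chr1:169949537-169969205) had 9.60, 12.9, 6.06 and 10.6 RPKM in the same order of libraries. Here the *Hmga2*-/- Ctrl library stood alone below the other 3, with a log2 ratio of -0.66 (interval -0.76 to -0.57). A shorter annotated transcript of *Hsd17b7*, with a higher RPKM, gave -0.53 and so lay within 1.5-fold.

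The 7 mevalonate and isoprenoid genes were all lower in *Hmga2*-/- Ctrl, with a median log2 ratio of -0.49 and a range from -0.55 for *Hmgcs1* to -0.26 for *Fdps*. *Hmgcs1*, which makes HMG-CoA, had 97.0 RPKM in *Hmga2*+/+ and 66.4 RPKM in *Hmga2*-/- Ctrl. *Mvk* (mevalonate kinase) had 10.4 and 7.40 RPKM, and *Mvd* (mevalonate diphosphate decarboxylase) had 14.7 and 10.1 RPKM. The other genes of these steps, *Acat2* (acetoacetyl-CoA thiolase), *Pmvk* (phosphomevalonate kinase) and *Idi1* (isopentenyl diphosphate isomerase), had ratios of -0.50, -0.42 and -0.28.

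Of the 10 squalene and sterol genes, 9 were lower in *Hmga2*-/- Ctrl, with a median of -0.46. *Sqle*, the squalene epoxidase, had 50.5 RPKM in *Hmga2*+/+ and 34.2 RPKM in *Hmga2*-/- Ctrl, a ratio of -0.56. *Msmo1* had 198.5 and 139.5 RPKM (-0.51). *Lss* (lanosterol synthase), *Sc5d* (a sterol desaturase), *Cyp51* and *Nsdhl* (a sterol dehydrogenase) lay between -0.47 and -0.35, and *Fdft1*, the squalene synthase at the branch toward sterols, was at -0.18. *Ebp*, the sterol isomerase, was the exception, with 16.1 and 16.6 RPKM and a ratio of 0.04 whose interval of -0.06 to 0.14 holds 0.

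All 6 fatty acid genes were lower in *Hmga2*-/- Ctrl, with a median of -0.45. *Acly*, the citrate lyase that supplies cytosolic acetyl-CoA, had 58.8 and 40.4 RPKM (-0.54), and *Fasn*, the fatty acid synthase, had 30.3 and 21.2 RPKM (-0.51). *Scd2* had 215.8 and 152.4 RPKM (-0.50). Ratios of *Scd1*, the elongase *Elovl6* and *Acaca* were -0.40, -0.37 and -0.32. *Scd1* and *Scd2* are close paralogs, and how reads shared by both were counted is not given in the sources used here.

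The regulators were lower as well. *Srebf2*, which encodes the SREBP form that mainly drives sterol genes, had 39.9 and 30.9 RPKM (-0.37), and *Srebf1*, whose product mainly drives fatty acid genes, had 11.8 and 9.47 RPKM (-0.32). *Insig1*, an SREBP target that holds the SCAP and SREBP complex in the endoplasmic reticulum, had 46.5 and 36.8 RPKM (-0.34). *Stard4*, a cytosolic sterol carrier, had 21.0 and 15.6 RPKM (-0.43). *Abca1* (chr4:53030789-53159895) went the other way, with 1.51 RPKM in *Hmga2*+/+ and 2.32 RPKM in *Hmga2*-/- Ctrl, a ratio of 0.62 (interval 0.50 to 0.75).

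**Figure D2:**
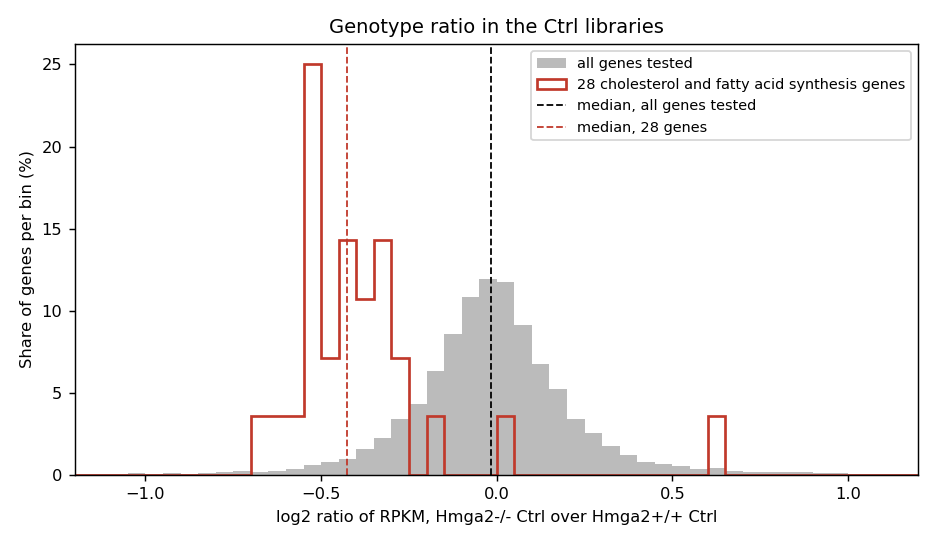
Log2 ratio of RPKM between the *Hmga2*-/- Ctrl and the *Hmga2*+/+ Ctrl library (x axis) against the share of genes per bin in percent (y axis), for the 10737 genes tested (grey; 76 lie outside the axis) and the 28 genes of the set (red outline), with dashed lines at the medians. The set is centred at -0.43 and all genes at -0.02, with *Ebp* and *Abca1* as the genes above 0.

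With TGFB1 the same genotype ratios were closer to 0. Of the 28 genes, 24 were lower in *Hmga2*-/- TGFB1 than in *Hmga2*+/+ TGFB1, where 41.3% of the genes tested were lower, and the median was -0.21 against 0.04 over all genes tested. At least 1.25-fold lower were *Hmgcs1* and *Fdps*, 2 of 28, against 6.12% of the genes tested (2 of 27 against 3.96% at 5 RPKM), and *Scd1* and *Elovl6*, at -0.32 each, lay just within that limit. Past 1.5-fold, 0 genes were lower, with a background of 1.98%, and *Abca1* was higher, with a background of 3.11%. Both genotype comparisons use libraries of their own, and their difference equals the difference in TGFB1 response given further on.

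*Hmgcs1* had 79.1 RPKM in *Hmga2*+/+ and 61.4 RPKM in *Hmga2*-/- TGFB1, a ratio of -0.36 (interval -0.40 to -0.33). *Fdps*, which joins isoprenoid units into farnesyl diphosphate, had 105.5 and 83.5 RPKM, a ratio of -0.34 (interval -0.38 to -0.29), and its genotype ratio was thus larger with TGFB1 than in Ctrl. The same held for *Fdft1*, at -0.29 with TGFB1. Among the fatty acid genes the ratios ran from -0.32 for *Scd1* to -0.18 for *Scd2*, and all 6 stayed below 0. *Pmvk*, *Idi1* and *Srebf1* were at -0.01, 0.06 and 0.01, with intervals that hold 0, so no difference was detectable at this depth. *Ebp* was at 0.10 (interval 0.01 to 0.19). *Abca1* had 0.742 RPKM in *Hmga2*+/+ and 1.17 RPKM in *Hmga2*-/- TGFB1, a ratio of 0.65 (interval 0.47 to 0.83), close to its ratio in Ctrl.

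**Figure D3:**
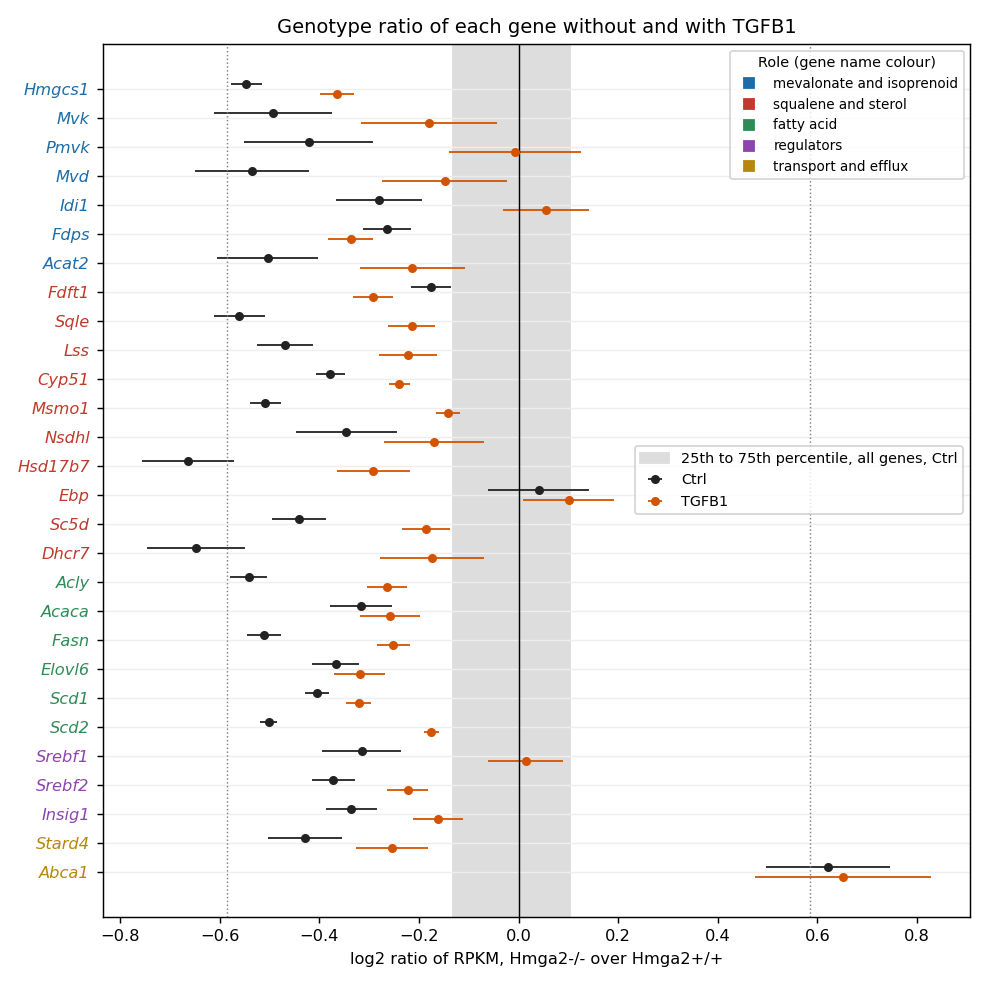
Log2 ratio of RPKM of *Hmga2*-/- over *Hmga2*+/+ MEF (x axis) for each of the 28 genes, in Ctrl (black) and with TGFB1 (orange), with bars for the exact 95% interval of counting error, dotted lines at 1.5-fold and a grey band from the 25th to the 75th percentile of all genes tested in Ctrl. In Ctrl 26 intervals lie wholly below 0, and with TGFB1 23 do. *Abca1* is to the right of 0 in both. The same count over all genes tested was not made, and with many reads the interval of a small ratio can exclude 0.

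In *Hmga2*+/+ MEF, the TGFB1 ratios of the set lay on both sides of 0, and few passed 1.5-fold. Of the 28 genes, 17 were lower and 11 higher, with a median log2 ratio of -0.08 against -0.05 over all genes tested. How many of all genes tested were lower by any amount was not counted. At least 1.5-fold lower were *Mvk* and *Abca1*, 2 of 28 genes, where 16.8% of the genes tested were lower. At least 1.5-fold higher was *Cyp51*, 1 of 28, where 11.4% of the genes tested were higher. These shares are below those of all genes tested.

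*Cyp51* (chr5:4080674-4104697) had 91.2 RPKM in *Hmga2*+/+ Ctrl, 150.7 RPKM in *Hmga2*+/+ TGFB1, 70.2 RPKM in *Hmga2*-/- Ctrl and 127.7 RPKM in *Hmga2*-/- TGFB1. Both TGFB1 libraries were above both Ctrl libraries. Its log2 ratio in *Hmga2*+/+ MEF was 0.72 (interval 0.70 to 0.75). *Msmo1* (chr8:64718145-64733578), which acts on the product of CYP51 further along, had 198.5, 290.9, 139.5 and 263.5 RPKM in the same order, with a ratio of 0.55. It too separated the TGFB1 from the Ctrl libraries. *Hsd17b7*, which acts with MSMO1 and NSDHL in removing methyl groups from the sterol ring, had a ratio of 0.43, and its 4 values likewise did not overlap between treatments. *Nsdhl* itself was at -0.10, with an interval of -0.19 to 0.00. Both TGFB1 libraries lay above both Ctrl libraries for *Cyp51*, *Msmo1*, *Hsd17b7* and *Ebp*, 4 of 28 genes, where 37.0% of the genes tested did so. They lay below for *Mvk* and *Abca1*, 2 of 28, where 39.6% did. *Ebp* had 16.1 and 16.6 RPKM in the Ctrl and 19.3 and 20.6 RPKM in the TGFB1 libraries.

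*Mvk* (chr5:114444269-114460590) had 10.4 RPKM in *Hmga2*+/+ Ctrl, 6.84 RPKM in *Hmga2*+/+ TGFB1, 7.40 RPKM in *Hmga2*-/- Ctrl and 6.04 RPKM in *Hmga2*-/- TGFB1. Its ratio of -0.61 (interval -0.73 to -0.49) was 1.52-fold, just past the limit. *Mvd* and *Dhcr7* were each at -0.49, *Acly* at -0.43 and *Hmgcs1* at -0.30 in the same cells. *Sqle*, *Insig1*, *Srebf1* and *Srebf2* were between -0.01 and 0.01. Their levels in the TGFB1 library of *Hmga2*+/+ MEF, such as 39.8 RPKM for *Srebf2* and 46.5 RPKM for *Insig1*, differed from Ctrl by less than counting error. *Abca1* was at -1.02 (interval -1.19 to -0.85), from 1.51 to 0.742 RPKM.

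In *Hmga2*-/- MEF the ratios to TGFB1 were shifted upward. There 9 genes were lower and 19 higher, with a median of 0.11 against 0.01 over all genes tested. In *Hmga2*+/+ MEF these medians were -0.08 and -0.05, so that of all genes tested was higher here as well. The share of all genes tested that was higher by any amount was not counted in either genotype. Past 1.5-fold, *Abca1* alone was lower, against 15.1% of the genes tested, and *Cyp51*, *Msmo1* and *Hsd17b7* were higher, 3 of 28 against 13.1%. *Msmo1* had the largest ratio of the set, 0.92 (interval 0.89 to 0.95), ahead of *Cyp51* at 0.86 and *Hsd17b7* at 0.80. *Sc5d* and *Scd2* were at 0.44 each, *Sqle* at 0.35, *Srebf1* at 0.33 and *Ebp* at 0.31. Genes whose interval lay wholly below 0 were *Hmgcs1*, *Mvk*, *Acly*, *Scd1*, *Elovl6* and *Abca1*, with *Mvk* at -0.29, *Elovl6* at -0.22 and *Abca1* at -0.99. *Dhcr7*, lower with TGFB1 in *Hmga2*+/+ MEF, was at -0.02 in *Hmga2*-/- MEF, with an interval that holds 0.

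The difference between the 2 responses, *Hmga2*-/- minus *Hmga2*+/+ on the log2 scale, was above 0 for 26 of 28 genes, where 59.4% of the genes tested were above 0. Its median was 0.25 against 0.05 over all genes tested. By role the medians were 0.31 for the mevalonate genes, 0.25 for the sterol genes, 0.17 for the fatty acid genes and 0.17 for the regulators. *Dhcr7* had the largest difference, 0.47, followed by *Pmvk* at 0.42 and *Mvd* at 0.39, and *Fdps* and *Fdft1* were below 0 at -0.07 and -0.12. No gene of the set differed by 1.5-fold in either direction, with a background of 3.55%. The order of the genes was much alike in both genotypes. Across the 28 genes, which are not independent replicates, Pearson's r between the responses was 0.92 and Spearman's rho 0.86, and across all 10737 genes tested they were 0.92 and 0.91. The 2 responses share no library.

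**Figure D4:**
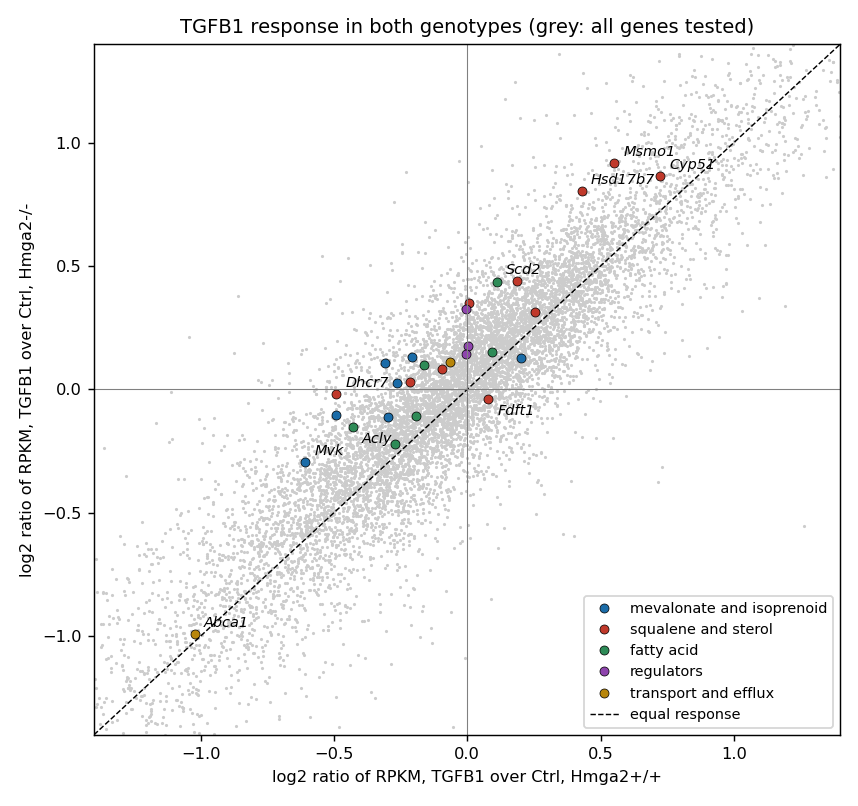
Log2 ratio of RPKM of TGFB1 over Ctrl in *Hmga2*+/+ (x axis) and *Hmga2*-/- MEF (y axis) for the 28 genes, coloured by role, over all 10737 genes tested (grey; 758 lie outside the axes). The dashed line marks equal responses, and 26 of the 28 genes lie above it, with *Cyp51*, *Msmo1* and *Hsd17b7* at the upper right and *Abca1* on the line at the lower left.

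Other genes of the pathway, from lists of 40 genes of which 32 were tested, were also mostly lower in *Hmga2*-/- Ctrl. Of the 32, 27 were lower, where 53.5% of the genes tested were lower, and their median was -0.23 against -0.02. By list the median was -0.16 for 7 further sterol genes, -0.21 for 4 genes of SREBP processing, -0.30 for 14 further fatty acid genes and -0.14 for 7 genes of LXR, storage and efflux. Past 1.5-fold, 1 gene was lower (background 1.64%) and 1 higher (background 2.37%). The lower gene was *Acsl3*, an acyl-CoA synthetase, with 20.9 RPKM in *Hmga2*+/+ and 13.7 RPKM in *Hmga2*-/- Ctrl (-0.61), and the higher one was *Ch25h*. *Ch25h*, which makes an oxysterol, was at 1.19 in Ctrl from 10 and 23 reads, and at -0.88 with TGFB1. Of the 7 genes of LXR, storage and efflux, 4 were lower and 3 higher in *Hmga2*-/- Ctrl. In the TGFB1 libraries 21 of the 32 were lower in *Hmga2*-/- MEF, against 41.3% of the genes tested, with a median of -0.09 against 0.04. There 1 of the 4 SREBP processing genes was lower and 3 were higher.

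With TGFB1 in *Hmga2*+/+ MEF, 3 of the 32 were at least 1.5-fold lower, against 16.8% of the genes tested, and 4 at least 1.5-fold higher, against 11.4%. Lower were *Acss2*, which makes acetyl-CoA from acetate, with 5.97 RPKM in Ctrl and 2.50 RPKM with TGFB1 (-1.26), *Mylip* at -1.08 and the sterol reductase *Tm7sf2* at -0.90. MYLIP is an LXR-induced ubiquitin ligase, and the ratio of *Mylip* in *Hmga2*-/- MEF was -0.84. Between genotypes *Mylip* was at -0.28 in Ctrl and -0.04 with TGFB1, where *Abca1* was at 0.62 and 0.65. Higher were *Ch25h* at 3.16, *Soat1*, which esterifies cholesterol for storage, at 0.84, *Tmem97* at 0.80 and the acyl-CoA synthetase *Acsl4* at 0.60. In *Hmga2*-/- MEF 5 of 32 were lower, against 15.1%, and 7 higher, against 13.1%. Of these, *Tm7sf2* (-0.81), *Acss2* (-0.91) and *Mylip* were lower, and *Tmem97* (0.91), *Acsl4* (0.76) and *Ch25h* (1.08) higher, in both genotypes. The other lower genes were *Acat1* (-0.74), a mitochondrial thiolase, and *Acsl1* (-0.66). The other higher genes were the elongase *Elovl1* (0.74), *Acsl3* (0.73), *Hsd17b12* (0.70), a reductase of fatty acid elongation, and *Scap* (0.60), the SREBP escort protein. The TGFB1 ratio of *Ch25h* differed between genotypes by -2.07, but rests on 10 reads in *Hmga2*+/+ Ctrl and 23 in *Hmga2*-/- Ctrl. Its ratio of 3.16 had an interval of 2.21 to 4.26. Of the 32 genes, 1 was past 1.5-fold in the response difference, against 3.55% of the genes tested.

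The direction of the genotype ratio in Ctrl was alike over the annotated transcripts of the set. The 28 genes have 59 transcripts in the table, and 18 genes have more than 1. Of the 57 transcripts with at least 1 RPKM in a library, 55 were lower and 2, those of *Ebp* and *Abca1*, were higher in the *Hmga2*-/- Ctrl library. The same count over all transcripts of the table was not made. The TGFB1 ratios depended more on the transcript. In *Hmga2*+/+ MEF the transcripts of *Sc5d* ran from -0.21 to 0.19, those of *Acaca* from -0.29 to 0.09 and those of *Srebf2* from -0.33 to 0.02. Those of *Msmo1* ran from 0.25 to 0.55. In *Hmga2*-/- MEF those of *Sc5d* ran from -0.05 to 0.46 and those of *Msmo1* from 0.74 to 0.92. The TGFB1 ratios of these genes given above hold for the transcript with the longest gene body. Transcripts of 1 gene share exons and reads, so they are not separate measurements.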

How the data were processed

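RNA-seq was analysed for 4 libraries, 1 per condition. The authors trimmed the reads (Trimmomatic), aligned them to mm10 with HISAT2 (2.1.0, per the submitters' processing notes) and deposited RPKM from HOMER for 63759 UCSC known gene transcripts, counted on the annotated strand. The table's header names exons as the counted feature and the methods name genes. Whether duplicates of the experiment were pooled into a column is not given in the sources used here. Each column of library values was used.

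Transcripts were assigned to GENCODE vM21 genes by at least 50% overlap of their span on the same strand, which named 57708 (90.5%), and the longest gene body was taken per gene. Reads per library (56140000, 57300000, 56610000 and 56950000 for *Hmga2*+/+ Ctrl, *Hmga2*+/+ TGFB1, *Hmga2*-/- Ctrl and *Hmga2*-/- TGFB1) were derived from transcripts under 600 bases with fewer than 20 reads, where 100% of values lay within 0.1 of a whole read. As in the methods, 0 RPKM was set to 0.001 and 1.5-fold was the limit. Log2 ratios were taken without a pseudocount. Exact Clopper-Pearson 95% intervals and the floor of 3 reads cover counting error only. Since the values are RPKM without replicates, no test was run and no p-value is given.

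The members, the lists of other pathway genes and cell type markers, and the motifs were chosen with earlier results of these data known. All 28 members are named, with all 4 values for those at least 1.5-fold different in a comparison of 2 libraries and ratios or ranges for the others. Other pathway genes are named where they passed 1.5-fold, and *Hmga2*, *Ccn2*, *Smad7* and *Acta2* check the labels (a further marker is not reported here). The alternatives changed the transcript chosen per gene, the scaling, the pseudocount, the fold and the filter. The steps were tested on simulated data. Python 3.11.15, numpy 2.4.6, pandas 2.3.3, scipy 1.17.1 and matplotlib 3.10.9 were used.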

Additional observations from a re-analysis of the deposited data

Results flagged for a closer look

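The TGFB1 ratios of *Idi1* and *Fasn* had opposite signs in the 2 genotypes, each beyond its counting interval. *Idi1* had 15.0 RPKM in Ctrl and 13.0 RPKM with TGFB1 in *Hmga2*+/+ MEF (-0.21), and 12.3 and 13.5 RPKM in *Hmga2*-/- MEF (0.13), a difference of 0.34. *Fasn* had 30.3 and 27.1 RPKM in *Hmga2*+/+ MEF (-0.16), and 21.2 and 22.7 RPKM in *Hmga2*-/- MEF (0.10), a difference of 0.26. With 1 library per condition these differences were not tested, and how many of all genes tested show such opposite signs was not counted. Both are small beside the changes of *Cyp51* or *Abca1*.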

How the results depend on the processing

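Median log2 ratios of the set moved by less than 0.1 under every alternative of transcript choice, scaling, pseudocount and filter. Of 700 ratios of single genes, 658 stayed within their counting interval (for response differences, within 0.1), 42 moved beyond it, and of those past 1.5-fold 0 changed sign. The number of genes lower in *Hmga2*-/- Ctrl was 26 under all 5 alternatives tried, that in TGFB1 was 24 or 25, and the number above 0 in the response difference was 23 with rescaled libraries and 25 with a pseudocount.

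Counts past the fold were small and moved easily. For lower genes with TGFB1 in *Hmga2*+/+ MEF the count of 2 became 1 with rescaled libraries, a fold of 2 or a filter of 5 RPKM, and 0 with a pseudocount of 1. For higher genes the count of 1 became 2 with rescaled libraries and 0 at a fold of 2. In *Hmga2*-/- MEF the count of lower genes became 0 at a fold of 2 or a filter of 5 RPKM, and the 3 higher genes became 0 at a fold of 2. For genotype in Ctrl, the 2 lower genes became 1 with the transcript of highest mean RPKM and 0 at a fold of 2. *Abca1*, the gene higher in *Hmga2*-/- in Ctrl and with TGFB1, gave 0 with a pseudocount of 1, a fold of 2 or a filter of 5 RPKM. No paired analysis was possible because each condition has a lone library. Differences between cultures or lines of a genotype could not be measured.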
